A study of Mus musculus with 18 samples.

Results

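RNA on the ribosomes of adipocytes was compared between 6 FI3KO and 6 WT mouse libraries, which were the 12 of the study's 18 libraries that came from translating ribosome affinity purification (TRAP) of epididymal white adipose tissue (eWAT). The other 6 libraries, of cultured adipocytes derived from the stromal vascular fraction, were not used here. TRAP uses an antibody to GFP to pull down ribosomes that carry a GFP-tagged protein in a chosen cell type, so the RNA reports what those cells were translating. FI3KO mice lack Irf3 in fat cells only, through floxed Irf3 alleles and a Cre recombinase driven by the adiponectin promoter, and here also carried the adipocyte NuTRAP tag (FI3KO-Ad-NuTRAP). WT mice were Ad-NuTRAP mice whose Irf3 was not targeted, so that both groups had the tag and were of the C57BL/6 strain. The NuTRAP allele is itself switched on by Cre, so WT mice needed a Cre driver as well, which the labels do not spell out beyond the prefix Ad. Both groups had been fed a high-fat diet (HFD) at thermoneutrality, the housing temperature at which mice need no extra heat production, for 8 weeks by the series description. The labels give neither age nor sex for these 12 samples, and they call each one a biological replicate. The study's methods describe male mice that began this diet at thermoneutrality at 8 weeks of age. The feeding time given there is longer than 8 weeks, and the methods do not say whether it holds for these samples.

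IRF3 is a transcription factor that sits in the cytoplasm until pattern recognition receptors such as TLR3, TLR4 or the RNA helicases signal through the kinases TBK1 and IKKε. Once phosphorylated it enters the nucleus and binds the interferon-stimulated response element, a repeat of GAAA, in the promoters of interferon, chemokine and interferon-stimulated genes. In adipocytes it is activated by LPS and by overnutrition, and it has been linked to insulin resistance and to low thermogenesis. The comparison asks which RNAs on adipocyte ribosomes differ when fat cells lack Irf3 during HFD feeding without cold stress.

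Library depth ranged from 25259869 to 40490283 estimated reads in FI3KO (median 31152226) and from 25729179 to 37933320 in WT (median 31353757.5). Reads of rRNA-like genes (Gm26917, Gm42418 and annotated rRNA genes) made up 9.62% and 6.69% of FI3KO replicates 1 and 2, and between 0.454% and 4.78% of the other 10 libraries. The libraries fell into 2 replicate sets. In the first principal component, which held 47.1% of the variance of log2 CPM (read counts scaled to library size with TMM), FI3KO replicates 3 to 6 scored between -51.58 and -39.26 and WT replicates 3 to 6 between 44.99 and 50.73. The 4 libraries of replicates 1 and 2 lay between them, from -13.44 to 3.58. The second component (16.2%) set FI3KO replicates 1 and 2 apart, at 45.01 and 41.42, from the other libraries, which scored between -30.67 and 15.2. WT replicates 1 and 2 differed by 2.54 times the sampling noise (chi-square per degree of freedom over 13787 genes), while every other pair within a group differed by 8.41 to 267.89 times. They differed by more than sampling noise and were kept as 2 samples, as labelled, but whether they came from separate animals is not known, and each p-value of the first set rests on counting them as 2. Summed into 1 sample they gave 1075 genes past both cutoffs over all libraries, against 901 with both. Genes are described over the 12 libraries and separately for the first set, replicates 1 and 2 (2 libraries per group), and the second set, replicates 3 to 6 (4 per group). A pair of log2 fold changes in brackets gives the first set and then the second. The labels give no batch, date or other meaning for the 2 sets.

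**Figure D1:**
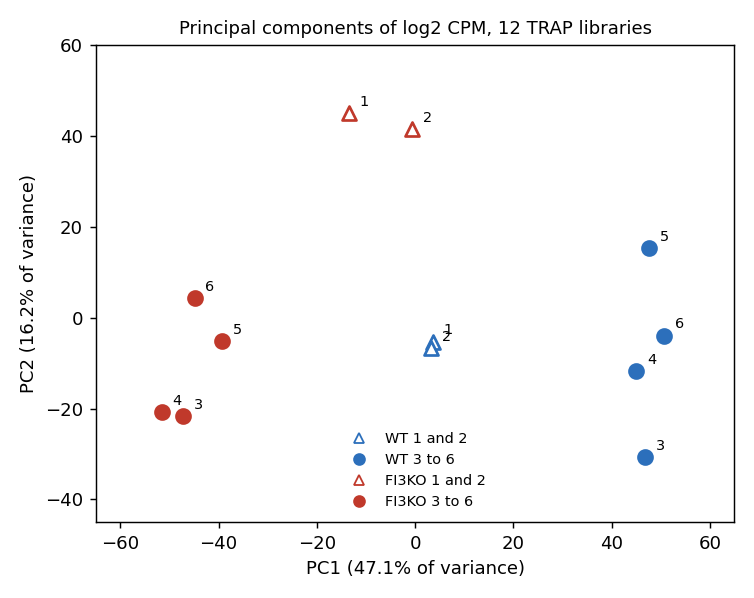
Scores of the 12 TRAP libraries on the first and second principal components of log2 CPM (arbitrary units), with WT in blue, FI3KO in red, replicates 1 and 2 as open triangles and replicates 3 to 6 as filled circles. FI3KO and WT replicates 3 to 6 stand at opposite ends of the first component, and replicates 1 and 2 of both groups lie between.

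The targeted gene was examined first. Irf3 (chr7:44997648-45002848, GRCm38, plus strand) kept reads in FI3KO and ranged from 12.5 to 19.97 CPM in FI3KO (median 15.3) and from 16.4 to 22.8 CPM in WT (median 20.5), so that the groups overlapped. Its log2 fold change of -0.35 (SE 0.11, adjusted p = 0.0198 by edgeR's quasi-likelihood test) was -0.18 in the first set and -0.45 in the second, and the difference between the sets did not pass the test (adjusted p = 0.365). This fall in reads turned into a rise once length was counted, since with an offset for transcript length the log2 fold change of Irf3 was 0.71 (adjusted p = 0.00181). Likewise, the TPM of all Irf3 transcripts summed to 69.68 ± 14.48 in FI3KO and 44.37 ± 3.42 in WT (mean ± SD, n = 6 each, two-sided exact permutation test, p = 0.00216). The transcripts that carried these reads differed between the groups. The files hold 13 Irf3 transcripts, of which 6 contain exons 2 and 3 of Irf3-202, a full-length protein-coding model of 8 exons. These 6 transcripts summed to between 13.91 and 18.28 TPM (a level per transcript length) in FI3KO and between 33.51 and 41.88 TPM in WT (two-sided exact permutation test, p = 0.00216, the smallest that 6 libraries against 6 allow). Irf3-202 itself was estimated at 0 TPM in each FI3KO library and at 13.29 to 22.38 TPM in WT. Irf3-207, a retained-intron model of 7 exons, fell from between 13.56 and 17.87 TPM in WT to between 3.86 and 7.49 TPM in FI3KO. Full-length Irf3-201 and Irf3-213 did not follow, with medians of 3.57 and 6.54 TPM in FI3KO and 1.04 and 2.66 TPM in WT and overlapping ranges.

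Short models of the end of the gene went the other way. Irf3-211 (chr7:45000748-45002347, GRCm38) has 3 exons that begin within exon 6 of Irf3-202, and Irf3-210 (chr7:45001387-45002390) has 2 exons that begin within intron 6. Irf3-211 was at 28.2 to 68.93 TPM in FI3KO (median 43.88) against 0 to 2.66 TPM in WT. Irf3-210 was at 3.97 to 6.16 TPM in FI3KO against 0.37 to 1.32 TPM in WT. Together both took 28.7% to 43.8% of the Irf3 reads of a FI3KO library and 0.6% to 2.6% of those of a WT library (two-sided exact permutation test, p = 0.00216). All 6 FI3KO libraries, in either set, lay beyond all 6 WT libraries in each of these measures, so that 0 of 12 libraries went against its label. Salmon divides reads among transcripts that share exons, so single-transcript values are estimates, and whether the short models stand for a product of the recombined allele was not tested.

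**Figure D2:**
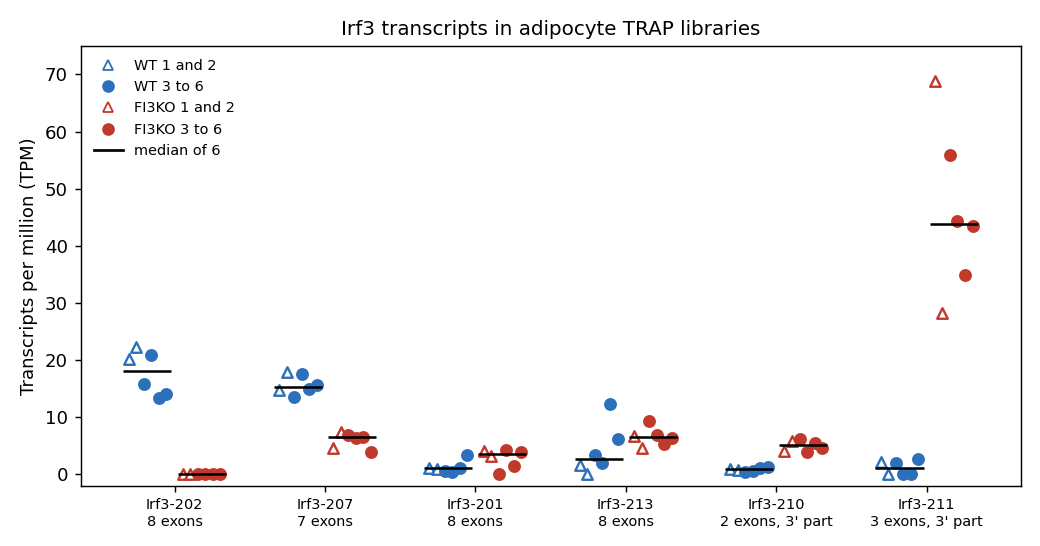
TPM of 6 Irf3 transcripts in each library, with WT in blue, FI3KO in red, replicates 1 and 2 as open triangles, replicates 3 to 6 as filled circles and the median of 6 as a bar. Irf3-202 was at 0 TPM in FI3KO, while the short Irf3-211 lay between 28.2 and 68.93 TPM in FI3KO and at most at 2.66 TPM in WT.

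The study used edgeR with 2 cutoffs, an adjusted p no larger than 0.05 and a log2 fold change of 1 or more, taken here in either direction. The quasi-likelihood test of edgeR, which gave the adjusted p here, is not named in the study. Over the 12 libraries, 901 of 13624 genes tested (6.61%) passed both cutoffs. Of these, 237 (1.74% of genes tested) were higher and 664 (4.87%) lower in FI3KO, and 814 were protein coding. By adjusted p alone 2605 genes (19.1%) rose and 2490 (18.3%) fell. The replicate sets differed widely in these counts. In replicates 1 and 2, 204 genes (1.5%) passed both cutoffs, 105 higher (0.771%) and 99 lower (0.727%). In replicates 3 to 6, 1809 genes (13.3%) passed them, 549 higher (4.03%) and 1260 lower (9.25%). The interaction term, which tests the difference between the sets itself, had an adjusted p of at most 0.05 for 3613 genes (26.5%). That count was 2107 without WT replicate 1 and 2033 without WT replicate 2, and the count within replicates 1 and 2 was 43 without FI3KO replicate 1, 336 without FI3KO replicate 2, 30 without WT replicate 1 and 32 without WT replicate 2. Among the 901 genes, all 901 had the same direction in replicates 3 to 6, and 705 (5.17% of genes tested) had it in replicates 1 and 2 as well, made up of 220 of the 237 higher genes and 485 of the 664 lower genes. These are 92.8% and 73% of the genes, where 68.3% of all genes tested had the sign of the 12 libraries in replicates 1 and 2. Both sets enter the 12-library test that chose these genes, so this share is a description. The lower genes had a median log2 fold change of -0.40 in the first set and -2.19 in the second, and the higher genes 0.61 and 1.78. For 614 of the 901 genes the change differed between the sets. Levels differed between the sets in both genotypes. Among these 614 genes, WT replicates 3 to 6 differed from WT replicates 1 and 2 past both cutoffs for 319, and FI3KO replicates 3 to 6 from FI3KO replicates 1 and 2 for 241, and over all genes tested these counts were 634 and 810.

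Only 77 genes (0.565%) passed both cutoffs in the same direction in both replicate sets, 13 higher (0.0954%) and 64 lower (0.47%), and 28 (0.206%) passed them in opposite directions. The count of 77 depended on the libraries of the smaller set, with 17 genes without FI3KO replicate 1, 16 without WT replicate 1 and 17 without WT replicate 2. Among the 64 lower genes were enzymes, secreted proteins and chemokines. Ass1 (chr2:31470207-31520672, GRCm38), which encodes argininosuccinate synthase of the urea cycle and arginine synthesis, ranged from 3.51 to 11.3 CPM in FI3KO (median 6.27) and from 52.9 to 78.3 CPM in WT (median 66.8). The highest FI3KO library was below the lowest WT library, and the log2 fold change of -3.33 (SE 0.22, adjusted p = 5.02e-06) was -2.77 in the first set and -3.69 in the second. The fall of Ass1 was larger in the second set (adjusted p = 0.0455 for the difference). Ccn5 (chr2:163820861-163833146, GRCm38), a secreted CCN-family protein of adipose precursors and fat cells, ranged from 2.78 to 6.02 CPM in FI3KO (median 3.34) and from 21.5 to 34.6 CPM in WT (median 27.8). Its log2 fold change of -2.85 (SE 0.19, adjusted p = 5.02e-06) was -2.08 in the first set and -3.27 in the second, larger in the second set (adjusted p = 0.000938 for the difference). Mest, an imprinted gene whose level follows fat-mass expansion, ranged from 307 to 723 CPM in FI3KO (median 387) and from 908 to 1554 CPM in WT (median 1070.5). Its log2 fold change of -1.36 over 12 libraries was -1.19 in the first set and -1.503 in the second (adjusted p = 0.166 for the difference). C3, the central complement component, ranged from 106 to 159 CPM in FI3KO (median 139) and from 319 to 829 CPM in WT (median 719.8). It fell by 2.21 (-1.34 and -2.49). Here the FI3KO libraries of the sets were alike and the WT libraries were not, at 325 and 319 CPM in WT replicates 1 and 2 and 664 to 829 CPM in WT replicates 3 to 6.

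Genes best known outside fat were among the deepest falls, and passed both cutoffs in both sets. Tph2, the tryptophan hydroxylase of serotonin neurons, ranged from 1.43 to 7.64 CPM in FI3KO (median 3.43) and from 17.5 to 171 CPM in WT (median 144), with a log2 fold change of -1.37 in the first set and -5.94 in the second. Gpr50, a melatonin-receptor-related orphan receptor, ranged from 0.247 to 1.85 CPM in FI3KO (median 1.15) and from 8.29 to 32.1 CPM in WT (median 22.97). It changed by -2.53 in the first set and -4.96 in the second. Otop1, a proton channel, ranged from 0.0365 to 1.13 CPM in FI3KO (median 0.316) and from 2.77 to 16.4 CPM in WT (median 13.1). It changed by -1.71 in the first set and -6.02 in the second. For all 3 the fall was deeper in replicates 3 to 6 (adjusted p = 1e-05, 0.0102 and 8.33e-05 for the difference), and in each of them the FI3KO and WT libraries did not overlap. The nucleoporin Nup210 ranged from 1.64 to 5.26 CPM in FI3KO (median 2.62) and from 8.39 to 18.2 CPM in WT (median 11.8). It fell alike in both sets (-1.9999 and -2.32). Ass1, Ccn5, Gpr50 and Nup210 were among the 10 genes taken for the deepest fall in both sets, by the smaller of their 2 changes, and the remaining 6 had few reads, namely the orphan receptor Mrgprf (-5.22 and -4.04), the glutamine transporter Slc38a3 (-5.82 and -2.47), alkaline phosphatase Alpl (-2.22 and -3.596), the olfactory receptor Olfr558 (-2.12 and -2.09), the lymphocyte receptor Cd6 (-2.07 and -4.55) and S100a8 (-3.31 and -4.67), a calprotectin subunit of neutrophils. The median of these 6 was at most 0.3495 CPM in FI3KO and at most 5.49 CPM in WT, and for Slc38a3 and Cd6 the size of the fall differed between the sets (adjusted p = 0.00136 and 0.00169).

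The 13 genes higher in both sets included signaling, adhesion and chromatin proteins. Net1 (chr13:3882018-3918220, GRCm38), an exchange factor for the GTPase RhoA, ranged from 99.5 to 262 CPM in FI3KO (median 132) and from 30.9 to 60.96 CPM in WT (median 40.2). It rose by nearly the same amount in both sets (2.05 and 1.89). Lrfn4, a synaptic adhesion protein, ranged from 5.497 to 7.301 CPM in FI3KO (median 6.35) and from 1.14 to 2.27 CPM in WT (median 1.76). It rose by 1.71 and 1.98. Hmga2, an architectural chromatin protein of growing cells, ranged from 1.21 to 3.23 CPM in FI3KO (median 2.33) and from 0.372 to 0.802 CPM in WT (median 0.418). It rose by 2.06 and 2.37 in the 2 sets. Rps6kl1 (1.402 and 1.64), the receptor tyrosine kinase Kit (1.73 and 1.398, with an adjusted p of 0.05 in the first set), Btnl9 (1.34 and 1.13), Srpx (1.12 and 2.88) and Eps8l1 (1.14 and 1.11) also rose past both cutoffs in each set, and of the 8 genes given so far in this group only for Srpx did the size of the rise differ between the sets (adjusted p = 0.000474). With an offset for transcript length the rise of Kit over 12 libraries did not pass the test (adjusted p = 0.122). Cish, a feedback inhibitor of STAT5 signaling, passed both cutoffs within each set (1.67 and 1.59) but not over the 12 libraries (log2 fold change 1.64, adjusted p = 0.165). It passed the test there with the replicate set as an additive term (adjusted p = 3.37e-06), with a replicate block (0.00138) and with WT replicates 1 and 2 left out (0.00947). The level itself differed between the sets, at 20.7 and 26.01 CPM in FI3KO replicates 1 and 2 and 2.04 to 2.404 CPM in FI3KO replicates 3 to 6.

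**Figure D3:**
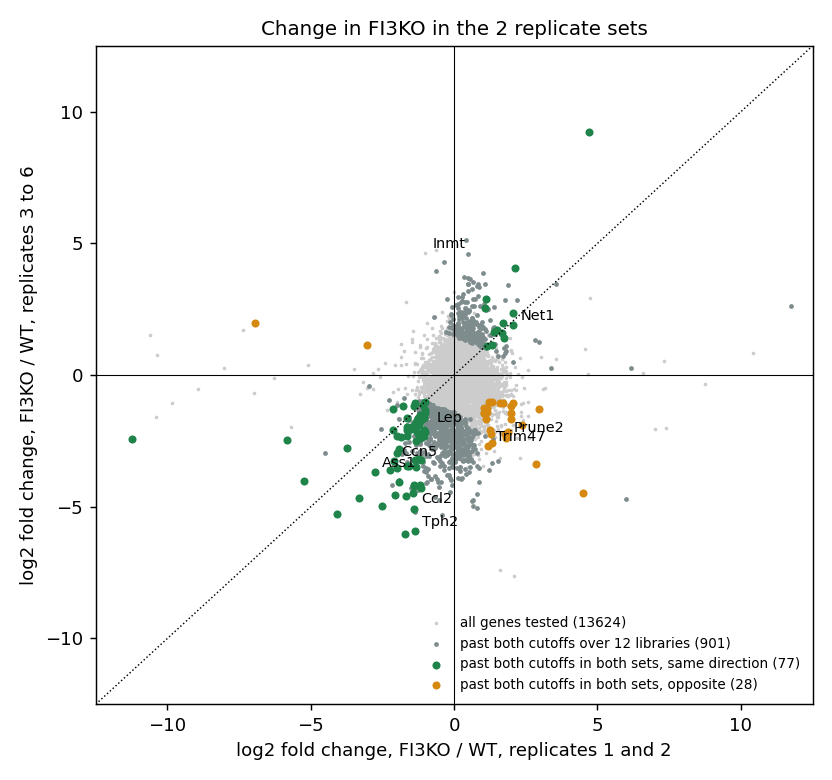
Log2 fold change of FI3KO against WT in replicates 1 and 2 (x axis) and in replicates 3 to 6 (y axis) for the 13624 genes tested, with the 901 genes past both cutoffs over 12 libraries in dark grey, the 77 past them in both sets in green and the 28 past them in opposite directions in orange. The dark grey genes reach farther from 0 in replicates 3 to 6 (median -2.19 for the lower and 1.78 for the higher genes) than in replicates 1 and 2 (-0.40 and 0.61).

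Among genes past both cutoffs over all 12 libraries with no overlap between the groups, the large rises given here were mostly carried by replicates 3 to 6. Groups that did not overlap were found for 2180 genes (16% of genes tested), with FI3KO above WT for 1018 (7.47%) and below for 1162 (8.53%). The transcription factor Mycl rose by 2.77 (1.89 and 3.41 in the 2 sets, adjusted p = 0.238 for the difference). The metalloreductase Steap2 (0.49 and 3.44), Disp2 (0.81 and 3.39), a relative of the Hedgehog-releasing protein Dispatched, the acyl-CoA synthetase Acsm3 (0.47 and 3.18), Smim5 (1.02 and 3.86), Smim10l2a (0.55 and 3.65), Tmem88b (0.82 and 3.47) and the transcription factor Sox7 (0.49 and 3.701) each rose more in replicates 3 to 6, with an adjusted p for the difference between 5.46e-06 and 0.0024. Disp2, the 1 of these 7 that passed the test in replicates 1 and 2 alone, ranged from 51.02 to 128 CPM in FI3KO (median 96.5) and from 8.92 to 32.9 CPM in WT (median 10.8). Among the falls, the lysosomal transporter Slc15a3 (-0.67 and -4.65), triadin (Trdn, -1.52 and -4.31) and the ubiquitin-like modifier Ubd (-0.53 and -4.73) likewise fell more in replicates 3 to 6 (adjusted p = 3.1e-05, 0.00925 and 7.63e-05 for the difference). Ubd ranged from 0.7298 to 6.04 CPM in FI3KO (median 2.395) and from 8.49 to 48.01 CPM in WT (median 40.1).

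**Figure D4:**
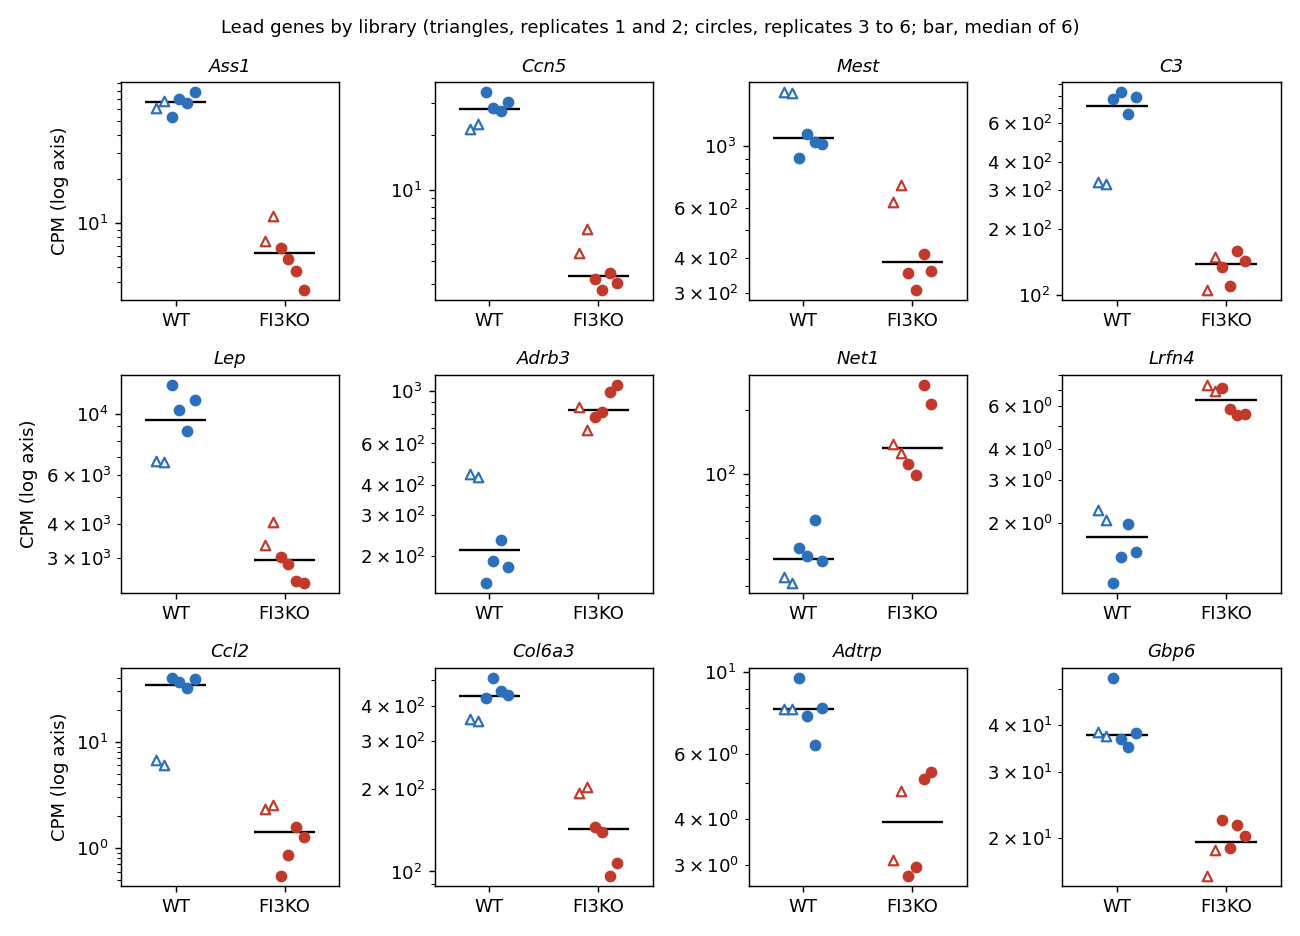
CPM on a log axis of 12 genes in each library, with WT in blue, FI3KO in red, replicates 1 and 2 as open triangles, replicates 3 to 6 as filled circles and the median of 6 as a bar. In all 12 genes the FI3KO and WT libraries do not overlap, and in C3, Lep, Adrb3 and Ccl2 WT replicates 1 and 2 lie between WT replicates 3 to 6 and the FI3KO libraries.

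Products that fat cells make in bulk were next examined. Of 18 adipocyte markers all were tested, 7 rose and 1 fell (against 19.1% and 18.3% of all genes), and their summed level ranged from 49802 to 62388 CPM in FI3KO and from 40959 to 57083 CPM in WT. Their median log2 fold change of 0.34 was -0.11 in the first set and 0.59 in the second, so the medians went opposite ways. In the first set 12 of 18 were below 0, and the change differed between the sets for 11 of 18. The 7 rises were 4 without FI3KO replicate 5, FI3KO replicate 6, WT replicate 3 or WT replicate 6, and 10 without WT replicate 1 or 2. Adipoq was at 1590 CPM or more in all 12 libraries, and 17 of the 18 markers of the labelled cell type had at least 10 counts in every library. The satiety hormone leptin (Lep) was the marker that fell, ranging from 2439 to 4039 CPM in FI3KO (median 2939.7) and from 6662 to 12708 CPM in WT (median 9498). Its log2 fold change of -1.63 (SE 0.18, adjusted p = 0.0001) was -0.86 in the first set and -1.99 in the second, in the same direction and larger in the second set (adjusted p = 0.00173). The β3-adrenergic receptor Adrb3, which couples catecholamines to lipolysis in fat cells, ranged from 685 to 1060.5 CPM in FI3KO (median 835) and from 154 to 447 CPM in WT (median 212). It rose by 1.66 (adjusted p = 0.000595), 0.80 in the first set and 2.27 in the second. The transcription factor Cebpa rose by 0.51 (0.31 and 0.62) and resistin (Retn) by 0.96 (0.43 and 1.28). Adipoq, which encodes adiponectin, had a log2 fold change of 0.42 (adjusted p = 0.115, which passed 0.05 without WT replicate 1 or 2) that was -0.37 in the first set and 0.89 in the second with a difference between the sets (adjusted p = 0.000841), so the sets did not agree for it. Pparg, the master regulator of adipogenesis, had -0.11 (adjusted p = 0.584), and -0.34 in the first set and -0.01 in the second.

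Genes past both cutoffs were also ranked by their difference in mean TPM, a level per length, and genes from both ends of this ranking are given. Large differences below the fold-change cutoff, such as those of Scd1 and Sparc, are not in this ranking. Complement factor D (Cfd, adipsin) ranged from 1367 to 3439 CPM in FI3KO (median 2585) and from 303 to 1318 CPM in WT (median 429), and its rise of 1.83 (adjusted p = 0.00476) was 0.14 in the first set and 2.97 in the second. Pck1, the cytosolic PEPCK of glyceroneogenesis, had 1.36 (0.06 and 2.65), the carboxylesterase Ces1d 1.06 (-0.01 and 1.71), Cyp2e1 1.72 (0.23 and 2.78), the extracellular glutathione peroxidase Gpx3 1.82 (0.44 and 2.76), S100a1 1.24 (0.45 and 1.71) and Ifi27l2a 1.25 (0.44 and 1.697). Each of these changes differed between the sets, with an adjusted p from 5.46e-06 to 0.00396. Pck1 passed the test over 12 libraries at an adjusted p of 0.0327, which was between 0.0605 and 0.0703 when FI3KO replicate 5 or 6 or WT replicate 3, 4, 5 or 6 was left out. The intracellular glutathione peroxidase Gpx1 was an exception, with 1.19 and 0.96 in the first set and 1.33 in the second (adjusted p = 0.308 for the difference), and so was the matrix glycoprotein Thbs1, with 1.32 and 0.97 and 1.55 (adjusted p = 0.56). The genes past both cutoffs with the largest losses in mean TPM were below 0 in both sets. The acute-phase protein haptoglobin (Hp) ranged from 1440.2 to 2265 CPM in FI3KO (median 1584) and from 2837 to 5065 CPM in WT (median 4824). It fell by 0.93 and 1.37 on the log2 scale in the 2 sets. Prelp, a matrix proteoglycan, had -1.02 (-0.86 and -1.104), Trp53inp2, an autophagy regulator, -1.09 (-0.94 and -1.17), the tubulin Tuba1a -1.09 (-0.67 and -1.26), Lrg1 -1.16 (-0.73 and -1.297) and Serpinf1, which encodes pigment epithelium-derived factor, -1.15 (-0.59 and -1.49). Of these 6, Hp, Prelp and Trp53inp2 passed the test in replicates 1 and 2 alone, and the change differed between the sets for Serpinf1 (adjusted p = 0.00902). In the list of 26 adipokines, 22 were tested, of which 4 rose and 6 fell, near the share of all genes that rose (19.1%) and somewhat above the share that fell (18.3%), and the rises were 7 without WT replicate 1 or 2. Besides Lrg1, the matricellular protein Sparc fell by 0.53 and 0.95 in the 2 sets and the Wnt antagonist Sfrp1 by 1.92 and 2.82.

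Lipid metabolism was examined with 4 lists. Among 21 genes of de novo lipogenesis tested, 11 rose and 3 fell (adjusted p of at most 0.05, against 19.1% and 18.3% of all genes), with a median log2 fold change of 0.32 (0.47 and 0.22), against 0.02 over all genes. The 11 rises were 7 without FI3KO replicate 3 or 4, and 7 with WT replicates 1 and 2 left out, and the 3 falls were 5 without FI3KO replicate 2. The Δ5 desaturase Fads1 ranged from 69.4 to 85.5 CPM in FI3KO (median 78.8) and from 27.4 to 43.1 CPM in WT (median 32.6). It rose by 1.199 (adjusted p = 3.6e-05), 0.85 in the first set and 1.399 in the second. The Δ9 desaturase Scd1 ranged from 60545 to 71434 CPM in FI3KO (median 61664) and from 28326 to 44081 CPM in WT (median 36594). It rose by 0.77 (0.54 and 0.91). The lipogenic cofactor Thrsp rose by 0.71 (0.73 and 0.69) and Acacb, the acetyl-CoA carboxylase at mitochondria, by 1.46 (0.86 and 1.83). Both sets went the same way in these 4 genes, and within the first set each but Acacb passed the test (2.23% of all genes rose and 3.81% fell there). Mlxipl, which encodes the lipogenic factor ChREBP, fell instead, by 0.25 (-0.03 in the first set and -0.35 in the second). With the replicate number as a block in edgeR, the fall of Mlxipl did not pass the test (adjusted p = 0.0655). Among 24 genes of fatty acid uptake and triglyceride synthesis, 4 rose and 8 fell, with a list median of -0.15 (-0.11 and -0.10) and with the lipoprotein receptor Vldlr at -0.55 (-0.38 and -0.63), the fatty acid carrier Fabp5 at -1.03 (-0.51 and -1.29), glycerol-3-phosphate dehydrogenase Gpd1 at -0.59 (-0.34 and -0.71) and the acyltransferase Gpam at 0.65 (0.37 and 0.78). With an offset for transcript length the fall of Vldlr no longer passed the test (adjusted p = 0.117), and its value in replicates 1 and 2 was 0.06.

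Among 21 genes of lipolysis and lipid droplets tested, 8 rose and 5 fell (against 19.1% and 18.3% of all genes, and with 3 falls without WT replicate 3 or 6), with a median of 0.27 (0.10 and 0.29). The adenosine receptor Adora1, which restrains lipolysis, had the smallest p of the list. It ranged from 92.2 to 103 CPM in FI3KO (median 95.5) and from 137 to 157 CPM in WT (median 143), and fell by 0.57 in replicates 1 and 2 and by 0.59 in replicates 3 to 6 (adjusted p = 1.75e-05 over 12 libraries). The esterase Ces1f rose by 1.43 (0.31 and 2.01), the lactate receptor Hcar1 by 1.47 (0.76 and 2.03) and the phosphodiesterase Pde3b, through which insulin restrains lipolysis, by 0.71 (0.19 and 1.02). For these 3 the rise differed between the sets, with an adjusted p of 0.000908, 0.0462 and 0.000393. In fatty acid beta-oxidation, 7 rose and 6 fell of 27 genes, somewhat above those shares, with a median of 0.03 (-0.12 and 0.08). Cpt1a, the carnitine acyltransferase that admits fatty acids to mitochondria, ranged from 58.4 to 78.2 CPM in FI3KO (median 68.5) and from 92.9 to 127 CPM in WT (median 118). It fell in both sets (-0.88 and -0.67), as did Acaa2 (-0.23 and -0.45, the first not past the test within its set), while Echs1 rose by 0.52 (0.18 and 0.70). In the list of thermogenic adipocyte genes 18 of 25 were tested, and 2 rose and 3 fell, both under the shares of all genes, with a median of -0.24 (-0.07 and -0.29). The 3 falls were 6 without FI3KO replicate 2, and the 2 rises 1 without FI3KO replicate 3, 4 or 6 or any 1 of WT replicates 3 to 6. Besides Otop1, the potassium channel Kcnk3 had -0.59 (-0.48 and -0.66) and the brown-fat factor Ebf2 0.73 (0.36 and 0.91).

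Fatty acid esters of hydroxy fatty acids (FAHFAs), signaling lipids of adipose tissue, are cut by the hydrolases AIG1 and ADTRP. Adtrp ranged from 2.81 to 5.36 CPM in FI3KO (median 3.93) and from 6.36 to 9.62 CPM in WT (median 7.96), so that every FI3KO library was below every WT library. Its log2 fold change of -0.97 (SE 0.18, adjusted p = 0.00137) was -1.01 in the first set and -0.95 in the second, alike in both sets (adjusted p = 0.929 for the difference), though in replicates 1 and 2 alone its adjusted p was 0.0724. Adtrp was just short of the fold-change cutoff. Aig1 ranged from 7.19 to 10.95 CPM in FI3KO (median 7.55) and from 5.93 to 7.62 CPM in WT (median 6.404), with overlapping groups and a log2 fold change of 0.51 in the first set and 0.18 in the second, and did not pass the test over 12 libraries (adjusted p = 0.0552, but 0.0431 without WT replicate 5, 0.0368 with an offset for transcript length and 0.0472 in the DESeq2 test, and up to 0.138 in the others). FI3KO replicate 1, at 10.95 CPM, stood above the other FI3KO libraries, and without it the log2 fold change of Aig1 was 0.18 (adjusted p = 0.111), against 0.29 with it. Of 13 genes of FAHFA metabolism and its surroundings, 9 were tested, of which 2 rose and 5 fell (against 19.1% and 18.3% of all genes), with a median of -0.29 (-0.17 and -0.28). The lipase Abhd2 had -0.59 (-0.48 and -0.65), the peroxiredoxin Prdx6 -0.58 (-0.17 and -0.76), and the mitochondrial transhydrogenase Nnt 1.24 (0.35 and 1.82).

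Small rises shared by most members were found for the respiratory chain. Of 53 nuclear genes for its subunits, 38 rose and 1 fell over the 12 libraries (against 19.1% and 18.3% of all genes) and 0 passed the fold-change cutoff, with a median log2 fold change of 0.28 (0.16 and 0.39). In replicates 3 to 6, 45 of 53 rose (26.6% of all genes did), and in replicates 1 and 2 0 did (2.23% of all genes), although 37 of 53 were above 0 there. Ndufs7 rose by 0.59 (0.36 and 0.71) and Ndufb10 by 0.52 (0.41 and 0.58), both subunits of complex I, and Atp5d, of the ATP synthase, by 0.33 (0.17 and 0.41). Of the 54 cytosolic ribosomal protein genes, 25 rose and 0 fell (19.1% and 18.3% of all genes did), again with 0 past the fold-change cutoff. Their median was 0.19 (0.26 and 0.15), and the change differed between the sets for 1 of 54. In replicates 1 and 2, 13 of 54 rose, where 2.23% of all genes did. Rplp2 ranged from 118 to 181 CPM in FI3KO (median 126) and from 73.03 to 97.8 CPM in WT (median 79.1). It rose by 0.86 and 0.70, Rplp1 by 0.52 and 0.52, Rps28 by 0.65 and 0.49, and each of these 3 rises passed the test in each set, while Rps15 had 0.19 and 0.41. Of 24 genes of branched-chain amino acid catabolism, 11 rose and 3 fell (against the same shares of all genes), with a median of 0.17 (-0.08 and 0.34). Acad8 (0.24 and 0.52, 0.43 over 12 libraries) and Bckdhb (0.44 and 0.65, 0.57 over 12 libraries) rose, and the amino acid transporter Slc7a5 fell (-0.41 and -1.51, -1.14 over 12 libraries).

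Of 31 genes of insulin signaling and glucose uptake, 11 rose and 2 fell (against 19.1% and 18.3% of all genes), with a median of 0.20 (0.00 and 0.29). The insulin receptor substrate Irs1 ranged from 139.9 to 182 CPM in FI3KO (median 157) and from 61.9 to 104 CPM in WT (median 65.1). Its rise of 1.04 (adjusted p = 0.0003) was 0.47 in the first set and 1.37 in the second, past the test in each set and larger in the second (adjusted p = 9.68e-05 for the difference). The kinase Akt1 rose by 0.29 (0.32 and 0.28), its substrate Tbc1d4 by 0.40 (0.19 and 0.50) and the glucose transporter Slc2a3 by 1.33 (0.62 and 1.79). Slc2a4, the insulin-responsive transporter GLUT4, had a log2 fold change of 0.01 (adjusted p = 0.95) and went in opposite directions in the sets (-0.40 and 0.24, adjusted p = 0.0373 for the difference). In glycolysis 4 rose and 6 fell of 23 genes (against 19.1% and 18.3% of all genes), with a median of 0.03 (-0.04 and 0.06), and among those that fell were Tpi1 (-0.47 and -1.28, -1.02 over 12 libraries), Pfkl (-0.09 and -0.54, -0.39 over 12 libraries) and Eno1 (-0.46 and -0.25, -0.32 over 12 libraries).

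The gene groups closest to IRF3 itself were innate immune genes. Of 27 chemokines 13 were tested, of which 1 rose and 8 fell (against 19.1% and 18.3% of all genes), with a median log2 fold change of -1.79 (-0.23 and -2.23). The monocyte chemoattractant Ccl2 ranged from 0.547 to 2.53 CPM in FI3KO (median 1.42) and from 6.02 to 39.9 CPM in WT (median 34.6). WT replicates 1 and 2 were at 6.75 and 6.02 CPM and WT replicates 3 to 6 at 32.5 to 39.9 CPM, and the fall was -1.38 in the first set and -5.08 in the second. Ccl7 (-1.17 and -4.27), the eosinophil attractant Ccl11 (-1.65 and -3.44) and the lymphoid chemokine Ccl19 (-1.85 and -2.34) also passed both cutoffs in each set, and for Ccl19 the sets did not differ past the test (adjusted p = 0.484). Ccl19 had few reads, at 0.294 to 0.773 CPM in FI3KO and 1.04 to 2.68 CPM in WT, so that test could miss a difference. Ccl5 had too few reads for a test. Of 29 NF-kB targets and cytokines tested, 1 rose and 18 fell (against the same shares of all genes), with a median of -0.76 (-0.20 and -0.96). The acute-phase protease inhibitor Serpina3n ranged from 256 to 369 CPM in FI3KO (median 323) and from 612 to 766 CPM in WT (median 741). It fell in both sets (-0.96 and -1.24), as did Tnfaip2 (-0.70 and -1.84).

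Of 62 interferon-stimulated genes tested, 3 rose and 17 fell (against 19.1% and 18.3% of all genes), and 4 passed both cutoffs, all lower (4.87% of all genes were). The median was -0.29 (-0.24 and -0.22), so that the medians of both sets lay to the same side, although the change differed between the sets for 20 of the 62 genes (26.5% of all genes). The guanylate-binding protein Gbp6 ranged from 15.9 to 22.4 CPM in FI3KO (median 19.6) and from 34.9 to 53.3 CPM in WT (median 37.7), with no overlap, and fell by 1.13 and 0.97 in the 2 sets (adjusted p = 9.66e-05 over 12 libraries). The antiviral protein Samd9l (-0.71 and -0.83), Ly6e (-0.46 and -0.77) and the MHC class I activator Nlrc5 (-0.46 and -0.35) fell without overlap as well, and none of the 4 differed between the sets past the test (adjusted p from 0.216 to 0.6). Isg15 and Ifit1, classical IRF3 targets, did not pass the test. Isg15 ranged from 0.455 to 0.876 CPM in FI3KO (median 0.516) and from 0.628 to 1.03 CPM in WT (median 0.858), with a log2 fold change of -0.46 (adjusted p = 0.149) and -0.23 in the first set and -0.57 in the second. Ifit1 ranged from 1.397 to 2.48 CPM in FI3KO (median 1.68) and from 1.03 to 3.48 CPM in WT (median 1.67) with -0.17 (adjusted p = 0.665), and the sets went opposite ways (-1.001 and 0.39, adjusted p = 0.0186 for the difference). In the list of receptors, adaptors and kinases upstream of IRF3 and of the IRF family, which holds Irf3 itself, 0 rose and 12 fell of 21 genes tested (against 19.1% and 18.3% of all genes), with a median of -0.35 (-0.17 and -0.45). Without Irf3, 0 rose and 11 fell of 20, with a median of -0.34 (-0.14 and -0.45). With an offset for transcript length, 1 rose and 6 fell of the 21. The interferon receptor chains Ifngr2 (-0.51 and -0.49) and Ifnar2 (-0.41 and -0.53) and the double-stranded RNA receptor Tlr3 (-0.70 and -0.49) fell in both sets without overlap of the groups. The related factor Irf8 ranged from 1.49 to 6.67 CPM in FI3KO (median 5.098) and from 12.9 to 36.7 CPM in WT (median 32.5). It fell by 2.64, with -1.07 in the first set and -3.31 in the second (adjusted p = 0.00506 for the difference).

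Promoters were searched for the response element that IRF3 and its relatives bind, written as GAAA, any 2 bases and GAAA again on either strand, in the 250 bases before and 50 bases after each RefSeq start site (GRCm38.p6). The motif is in 1131 of 32851 promoters (3.44%). By symbol, 10206 of 13624 genes tested were matched to a promoter, and 385 of them (3.77%) hold the motif in at least 1 start site. Among matched interferon-stimulated genes the share was 27 of 47 (57.4%). Of those 27 genes, 0 rose and 3 fell over the 12 libraries, with a median log2 fold change of -0.28 (-0.23 and -0.17 in the 2 sets). Of the 20 matched genes without the motif, 3 rose and 5 fell, with a median of -0.15 (-0.24 and -0.09). The 15 interferon-stimulated genes not matched to a promoter held 9 of the 17 that fell, with 0 that rose and a median of -0.32 (-0.38 and -0.40), so the split by motif covers the other 8. Among the 40 matched genes of the 64 that fell in both sets, 4 hold it (Ccl19, Kcnj16, Tgfbi and Unc80, named after their values were seen), and among the 456 matched genes of the 664 lower over the 12 libraries, 25 do (5.48%). Among higher genes it is in 1 of 11 matched genes of the 13 in both sets (9.09%, Eps8l1) and 6 of 148 matched genes of the 237 over the 12 libraries (4.05%). An NF-kB-like motif, GGGA, any 2 bases and TTCC on either strand, is in 1 of the 40 promoters of genes that fell in both sets, 1.66% of the promoters of genes tested and 8 of the 456 (1.75%). The 2 motifs were searched separately and a promoter may hold both, as that of Gbp2 does. A match describes the letters only. Shown are the promoter of Isg15, which holds 3 overlapping copies that begin at -78, -72 and -66 from the start, and those of Ccl19 and Tgfbi, genes that fell in both sets and hold 1 copy each, at -208 and -194, with the motif in capitals and the gene's own strand 5′ to 3′.

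Isg15 (chr4:156200769-156201068, minus strand): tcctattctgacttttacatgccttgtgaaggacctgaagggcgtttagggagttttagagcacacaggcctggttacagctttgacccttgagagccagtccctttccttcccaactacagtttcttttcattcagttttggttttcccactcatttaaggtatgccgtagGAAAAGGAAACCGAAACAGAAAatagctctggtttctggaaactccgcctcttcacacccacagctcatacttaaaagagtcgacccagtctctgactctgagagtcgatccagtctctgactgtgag
Ccl19 (chr4:42756316-42756615, minus strand): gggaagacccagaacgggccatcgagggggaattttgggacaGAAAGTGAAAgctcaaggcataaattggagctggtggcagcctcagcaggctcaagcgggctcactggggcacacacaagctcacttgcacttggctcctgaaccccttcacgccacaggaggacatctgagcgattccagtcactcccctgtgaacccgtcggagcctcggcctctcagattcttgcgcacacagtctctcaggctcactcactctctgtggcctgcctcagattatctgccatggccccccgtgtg
Tgfbi (chr13:56609336-56609635, plus strand): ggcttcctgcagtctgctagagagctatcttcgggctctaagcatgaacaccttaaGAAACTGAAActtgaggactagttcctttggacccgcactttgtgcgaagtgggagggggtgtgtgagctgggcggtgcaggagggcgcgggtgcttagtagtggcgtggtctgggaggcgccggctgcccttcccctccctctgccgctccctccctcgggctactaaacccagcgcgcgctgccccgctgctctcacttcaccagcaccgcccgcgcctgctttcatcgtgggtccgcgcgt

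Tgfbi, a matrix protein induced by TGF-β, ranged from 1.98 to 4.76 CPM in FI3KO (median 2.79) and from 4.66 to 10.8 CPM in WT (median 5.9). It fell by 1.37 and 1.05 in the 2 sets, while its groups overlapped over the 12 libraries, since FI3KO replicate 2 (at 4.76 CPM) was above the lowest WT library. WT replicates 1 and 2 (at 9.46 and 10.8 CPM) were above WT replicates 3 to 6. Isg15 and Ccl19 are given above.

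Matrix genes fell mainly in replicates 3 to 6. Of 23 collagens tested, 0 rose and 13 fell (18.3% of all genes fell), and 7 were lower past both cutoffs (4.87% of all genes), with a median of -0.66 (0.07 and -0.94). Collagen VI, the main collagen around fat cells, was the exception in which both sets fell. Col6a1 ranged from 262 to 465 CPM in FI3KO (median 333) and from 742 to 1019 CPM in WT (median 908). It changed by -0.78 in the first set and -1.64 in the second. Col6a2 (-0.77 and -1.47) and Col6a3 (-0.84 and -1.91) also passed the test in each set, and Col5a1 had -0.24 and -1.11. In each of these 4 genes the change was larger in replicates 3 to 6 (adjusted p from 0.00184 to 0.00773 for the difference). Of 30 genes of matrix remodeling tested, 3 rose and 13 fell (against 19.1% and 18.3% of all genes, and with 8 falls without any 1 of WT replicates 3 to 6), with a median of -0.72 (0.39 and -1.26). Lysyl oxidase (Lox), which cross-links collagen, ranged from 89.2 to 129 CPM in FI3KO (median 95.6) and from 204 to 279 CPM in WT (median 253). It fell in both sets (-0.91 and -1.42). Its relative Loxl4 had -1.67 (-0.81 and -2.08), and the protease inhibitor Timp3 rose by 0.64 (0.56 and 0.68).

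Of 24 p53 targets tested, 1 rose and 15 fell (against 19.1% and 18.3% of all genes), with a median of -0.39 (-0.17 and -0.55). Gtse1, which restrains p53 in dividing cells, ranged from 2.31 to 3.76 CPM in FI3KO (median 2.48) and from 8.97 to 11.1 CPM in WT (median 9.68). It fell past both cutoffs in each set (-1.51 and -2.04). The death receptors Eda2r (-0.91 and -1.45) and Fas (-0.47 and -0.65) and the DNA polymerase Polk (-0.52 and -0.78) fell without overlap of the groups and past the test in each set. Of 26 NRF2 antioxidant genes 9 rose and 7 fell, in no common direction, and the median was 0.03 (-0.06 and 0.16), with the glutathione enzymes Gsta3 (0.40 and 1.24, 0.95 over 12 libraries), Gsr (0.29 and 0.47, 0.42 over 12 libraries) and Gpx4 (0.26 and 0.72, 0.56 over 12 libraries) among those that rose. Of 18 circadian clock genes 7 rose and 4 fell, with a median of 0.18 (-0.09 and 0.32). In replicates 1 and 2, 11 of the 18 were below 0. Nr1d1 (0.30 and 1.19, 0.92 over 12 libraries), Dbp (0.51 and 1.86, 1.48 over 12 libraries) and Npas2 (0.88 and 1.902, 1.54 over 12 libraries) rose, none of them past the test in replicates 1 and 2 alone, and Npas2 not with an offset for transcript length (adjusted p = 0.193). Of 29 growth factor, receptor and binding protein genes tested, 8 rose and 5 fell. The progenitor growth factor Fgf10 ranged from 179.6 to 278 CPM in FI3KO (median 212) and from 73.5 to 132 CPM in WT (median 82.98). It rose by 1.21 (0.57 and 1.58), and its receptor Fgfr2 rose by 0.72 (0.37 and 0.91). Fgf1 fell by 1.02 (-0.42 in the first set and -1.29 in the second) and Igfbp5 by 0.90 (-0.57 in the first set and -1.07 in the second). The nuclear receptor Nr2f2 rose by 1.15 (0.25 and 1.596).

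The remaining lists are given by their counts, against 19.1% of all genes that rose and 18.3% that fell, and their medians in both sets are in the plot of list medians. In hypoxia response 3 rose and 6 fell of 17 genes, in the ATF4 stress response 3 rose and 6 fell of 24, among ER chaperones 4 rose and 5 fell of 22, among heat shock proteins 2 rose and 3 fell of 16, among glucocorticoid and fasting genes 3 rose and 5 fell of 15, among adipogenic transcription factors 3 rose and 3 fell of 17 and among the 13 genes of the mitochondrial genome 3 rose and 2 fell. Counts this small moved with single libraries. The 3 rises in hypoxia response were 1 without FI3KO replicate 4 or 6 or WT replicate 3 or 4, and the 2 rises of heat shock proteins were 0 or 1 without FI3KO replicate 3, 4 or 6 or WT replicate 3, 4 or 6. Adipogenic transcription factors had 5 rises without WT replicate 2 and 1 fall without WT replicate 3, and the mitochondrial genome had 1 fall without FI3KO replicate 1, 3 or 4 or WT replicate 3, 5 or 6. In cholesterol synthesis 1 rose and 6 fell of 22 (10 fell without WT replicate 1 or 2), with Hsd17b7 at -0.68 (-0.35 and -0.83), and a list median of -0.15 (0.25 and -0.32). In the cell cycle list 3 rose and 11 fell of 29 and 5 were lower past both cutoffs, with a median of -0.40 (-0.04 and -0.62), and the spindle factor Tpx2 had -1.32 (-1.24 and -1.35). Past the test in each set were the cysteine-producing enzyme Cth at -1.26 (-0.61 and -1.53), the small heat shock protein Cryab at -1.104 (-0.88 and -1.22) and the glycolytic regulator Pfkfb4 at -0.93 (-0.55 and -1.13).

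**Figure D5:**
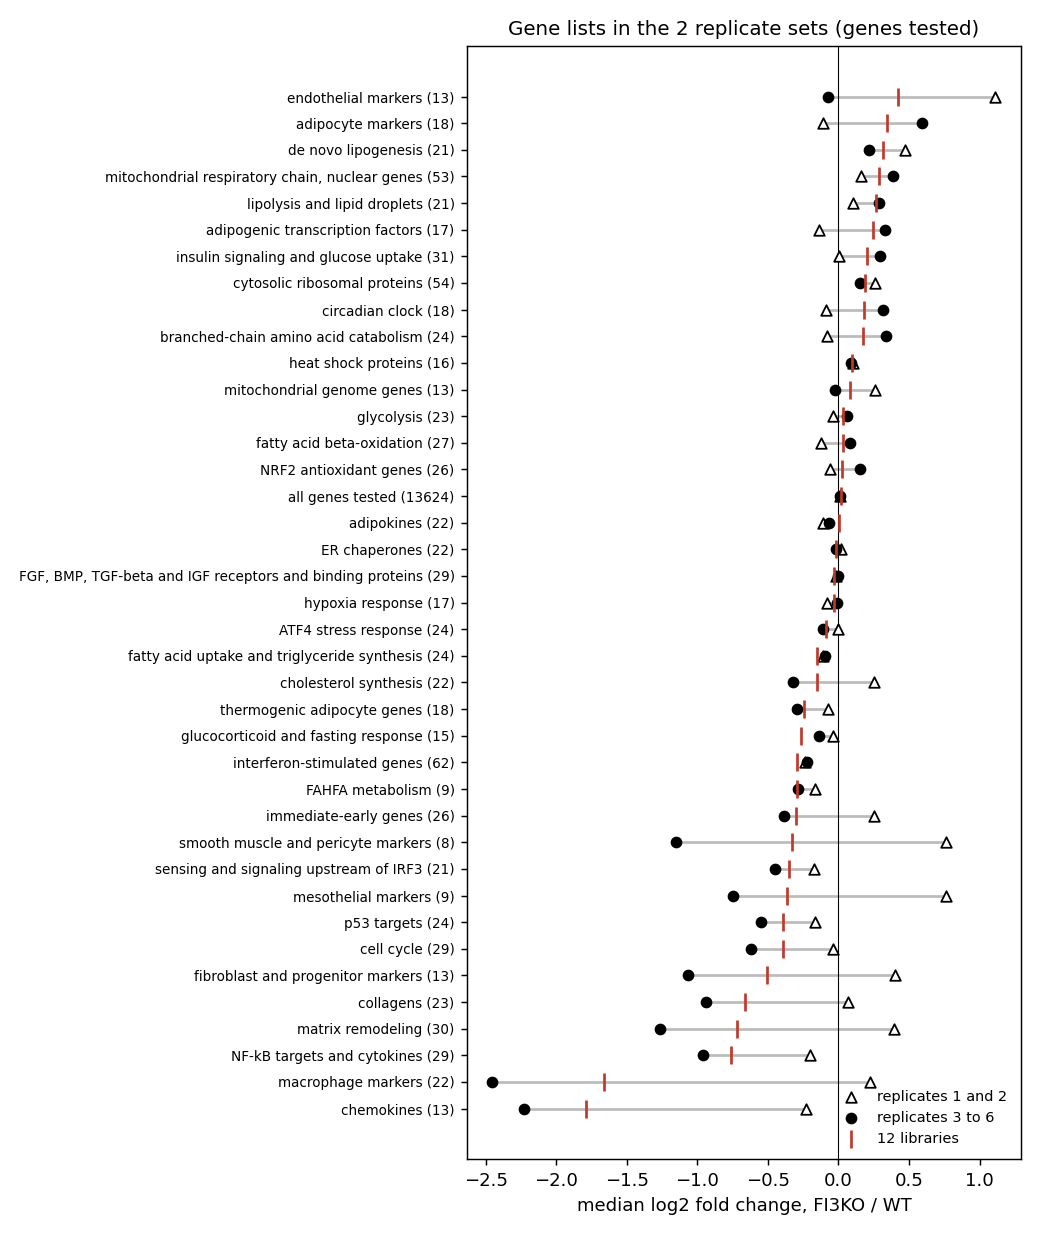
Median log2 fold change of FI3KO against WT of each gene list with at least 8 genes tested (numbers in brackets), in replicates 1 and 2 (open triangles), in replicates 3 to 6 (filled circles) and over 12 libraries (red bars), with all genes tested as 1 row. The sets lie close together for interferon-stimulated genes (-0.24 and -0.22) and cytosolic ribosomal proteins (0.26 and 0.15), and far apart for macrophage markers (0.22 and -2.45) and collagens (0.07 and -0.94).

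Markers of other cells of the tissue moved with genotype and with the set. The pulldown is made to remove RNA of cells without the tag, and carry-over of such RNA into the immunoprecipitate was not tested. Fewer cells of a type and less RNA per cell cannot be told apart in these libraries. Of 28 macrophage markers 22 were tested, of which 1 rose and 20 fell (against 19.1% and 18.3% of all genes), and their summed level ranged from 89.6 to 160.0 CPM in FI3KO and from 153 to 306 CPM in WT. Their median was -1.66 (0.22 and -2.45), and the change differed between the sets for 20 of 22. In the first set 15 of 22 were above 0, and in the second 21 of 22 fell. With the replicate number as a block 7 of 22 fell, at a median of -1.61. Cd74 (-0.71 and -2.23, -1.72 over 12 libraries), Itgax (-1.17 and -2.58, -1.97 over 12 libraries) and Lyz2 (-0.15 and -2.41, -1.5997 over 12 libraries) fell, and Cd14 rose (0.66 and 2.07, 1.66 over 12 libraries). Cd74, Itgax and Lyz2 were among the 7 of 22 markers below 0 in the first set, so they do not stand for most of the list there. The 13 endothelial markers tested were all above 0 in replicates 1 and 2 instead, with a median of 0.42 (1.11 and -0.07) and a summed level from 45.4 to 208 CPM in FI3KO against 48.7 to 94.01 CPM in WT, and Cldn5 was the 1 of 13 that rose (1.69 and 0.71, 1.18 over 12 libraries). The median of the endothelial markers was 0.059 without FI3KO replicate 2 and -0.129 with FI3KO replicates 1 and 2 left out, where Cldn5 no longer passed the test (adjusted p = 0.0696). Of 13 fibroblast and progenitor markers 3 rose and 5 fell (the falls were 3 without WT replicate 3 or 6), among them Zfp423, a preadipocyte factor that fell in both sets (-0.90 and -1.06), Dpp4 (-0.14 and -2.103, -1.503 over 12 libraries), Dcn (0.36 and 1.98, 1.36 over 12 libraries) and Gsn (0.21 and 1.00, 0.70 over 12 libraries), the last of which gave most of the summed level of 5904 to 8773 CPM in FI3KO and 3515 to 5839.8 CPM in WT. The median of these 13 markers was -0.50 (0.40 and -1.06). In the first set 11 of 13 were above 0, and in the second 10 of 13 fell. The change differed between the sets for 12 of 13. Of 8 smooth muscle and pericyte markers 0 rose and 3 fell, Acta2 (-0.50 and -1.58, -1.18 over 12 libraries), Des (-0.32 and -2.18, -1.62 over 12 libraries) and Tagln (0.65 and -2.67, -1.6000 over 12 libraries), with a summed level of 268 to 502 CPM in FI3KO and 613 to 879 CPM in WT. The median of these 8 markers was -0.33 (0.76 and -1.15). In the first set 6 of 8 were above 0, and in the second 7 of 8 were below 0. With an offset for transcript length Dpp4 (adjusted p = 0.153) and Tagln (0.0547) no longer passed the test. Only 3 of 19 lymphocyte markers and 2 of 15 neutrophil, mast and dendritic cell markers (S100a8 and Kit) had enough reads, 0 of 9 mesothelial markers tested had an adjusted p of at most 0.05 in edgeR's test, and 0 of them an unadjusted p under 0.05, and 0 of 15 epididymal epithelium markers were tested. The part that these other cells have in the changes of the genes reported here was not tested. This holds for chemokine, NF-kB and matrix genes, for Irf8 and for single genes such as Btnl9 and Sox7.

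Some genes went opposite ways in the sets. A log2 fold change past 1 in opposite directions was fitted for 173 genes, and the 5 with the smallest p for the difference are given. Trim47, a ubiquitin ligase, was 1.198 in the first set and -2.6998 in the second. Its FI3KO libraries were at 4.07 and 3.96 CPM in replicates 1 and 2 and 1.05 to 1.65 CPM in replicates 3 to 6, and its WT libraries at 1.97 and 1.54 CPM and at 7.397 to 9.65 CPM. Inmt, a methyltransferase, was -1.001 in the first set and 4.63 in the second, Prune2 1.81 and -2.38, the metal-binding metallothionein Mt2 1.25 and -2.103, and the stromal marker Cd248 1.32 and -2.59. Over the 12 libraries only Trim47 of these had an adjusted p of at most 0.05 (0.0279), and leaving out any 1 of the 8 libraries of replicates 3 to 6 put it between 0.0526 and 0.0615. With the replicate set as an additive term it was 0.0589, and with a replicate block 0.154. The others passed under some alternatives, Mt2 (adjusted p = 0.0505) under 10 of 24, Cd248 (0.0601) under 6 of 23, Inmt (0.186) under 2 of 24, which were the additive term (0.0378) and WT replicates 1 and 2 left out, and Prune2 under 1 of 24. For immediate-early genes, which respond to stress and handling, the median had opposite signs in the sets. Of 26 tested, 3 rose and 8 fell over the 12 libraries (against 19.1% and 18.3% of all genes), the falls numbered 5 without FI3KO replicate 6, WT replicate 4 or WT replicate 6, and the median was -0.30 (0.25 and -0.39). Klf4 (0.15 and -1.92, -1.27 over 12 libraries) and Junb (-0.20 and -1.42, -1.04 over 12 libraries) fell over the 12 libraries and Jund rose (0.71 and 0.99, 0.89 over 12 libraries). For Klf4 and Junb the sets differed (adjusted p = 5.81e-05 and 0.0119), and for Jund they did not differ past the test (adjusted p = 0.444). An offset for transcript length ended the call of Klf4 (adjusted p = 0.179).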

How the data were processed

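RNA was sequenced from anti-GFP immunoprecipitates of frozen epididymal fat (TRAP), after rRNA depletion and with a library kit that does not mark strand. According to the submitters' processing notes and the study's methods, the authors trimmed reads with fastp, quantified them against GENCODE mouse transcripts (GRCm38) with Salmon 1.4.0, and deposited for each sample the estimated counts and TPM of each transcript with its effective length. A transcript-to-gene map of GENCODE M21 (GRCm38) was used here, which is older than the authors' release. It matched 117850 of 118733 transcripts, and the others held 0.679% to 1.079% of the reads of a library. Estimated counts were summed per gene, rounded, filtered with filterByExpr, scaled by TMM and tested with edgeR 4.0.16 (quasi-likelihood test, two-sided, Benjamini-Hochberg adjustment over all genes tested) in R 4.3.3. CPM are those TMM-scaled values. Within-set values and the test of the difference between sets came from 1 edgeR fit with 4 means, genotype by replicate set, and a p printed without another name is from these edgeR fits. Irf3 transcript levels are the deposited TPM, compared with exact permutation tests (scipy 1.17.1). "Rose", "fell" and "past the test" mean an adjusted p no larger than 0.05, and "both cutoffs" adds a log2 fold change of 1 or more in either direction. Depth was 25259869 to 40490283 estimated reads per library, and low genes are the least precise.

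Genes were named by a rule: those the study is about; the 10 largest changes in each direction past both cutoffs whose groups did not overlap and whose mean log2 CPM reached 1; the 10 in each direction past both cutoffs in both sets by the smaller change; up to 4 per gene list by p; the 10 largest gains and losses in mean TPM past both cutoffs; and the 5 genes past 1 in opposite directions with the smallest p for the difference. Some genes that the rule names are not reported here. The comparison, the 41 lists (1041 genes, 891 tested) and the rule were chosen with earlier results of these data known. The scripts were tested on simulated data. Reads of genes that share exons cannot be told apart, and 20 of 166 genes considered share at least 100 exon bases with another tested gene, among them Mest with Copg2, Adrb3 with Gm45470, Acsm3 with Eri2, Srpx with Rpgr, Irs1 with Gm9747, Slc15a3 with Tmem132a, Trim47 with Trim65, Nr1d1 with Thra, Dbp with Sphk2, Timp3 with Syn3 and Fgfr2 with Ctbp2. Alternatives were other scalings (DESeq2 1.42.0 size factors), the DESeq2 test, other filters, cutoffs, dispersions and covariates, an offset for transcript length, and libraries left out. Same-numbered FI3KO and WT libraries did not deviate together (correlations of deviations from the group means from -0.293 to 0.104), so the replicate numbers were not used as pairs. The authors' effective lengths entered only the offset. Libraries of cultured adipocytes were not used here.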

Additional observations from a re-analysis of the deposited data

Results flagged for a closer look

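In 11 of 338 groups of 6 libraries examined, 1 library stood apart by Dixon's criterion, in which the gap to the nearest library, divided by the range of the group, exceeds the critical value for 6 libraries. Chance would set apart about 5% of groups. In FI3KO replicate 1 this held for Aig1 (gap over range 0.732; 10.95 CPM against 7.19 to 8.20 CPM in the other FI3KO libraries) and for Mt2 (0.673; 51.6 CPM against 16.9 to 28.2 CPM). In FI3KO replicate 2 it held for Tpi1 (0.626; 378.5 CPM against 256 to 302 CPM), Fabp5 (0.721; 72.4 CPM against 44.1 to 52.0 CPM) and Fgf1 (0.628; 128 CPM against 87.4 to 103 CPM). In FI3KO replicate 4 it held for Ccl19 (0.779; 0.773 CPM against 0.294 to 0.400 CPM). In WT replicate 1 it held for Hmga2 (0.802; 0.802 CPM against 0.372 to 0.457 CPM), and in WT replicate 3 for Itgax (0.64; 14.9 CPM against 8.23 to 10.6 CPM), Gbp6 (0.813; 53.3 CPM against 34.9 to 38.3 CPM) and Ifngr2 (0.659; 56.3 CPM against 47.4 to 50.4 CPM). In WT replicate 5 the share of reads in rRNA-like genes stood apart (0.664; 4.78% against 0.454% to 1.91% in the other WT libraries).

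The change between FI3KO and WT differed between replicates 1 and 2 and replicates 3 to 6 for 3613 genes by the interaction term of edgeR's quasi-likelihood test. Among genes past 1 in opposite directions, the adjusted p of that term was 5.46e-06 for Trim47, 7.85e-06 for Inmt, 2.25e-05 for Prune2, 6.83e-05 for Mt2 and 7.08e-05 for Cd248. The labels do not say how the 2 sets differed, so no cause was tested.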

How the results depend on the processing

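The count of 901 genes past both cutoffs was 574 with at least 10 counts required in every library, 92 when tested against a log2 fold change of 1 (glmTreat), 5095 by adjusted p only, 1868 in replicates 3 to 6 only and 191 in replicates 1 and 2 only. In alternatives chosen after seeing the data it was 1432 with WT replicates 1 and 2 left out and 1447 with FI3KO replicates 1 and 2 left out. Leaving out single libraries gave 761 to 1115. The count within replicates 1 and 2 (204) was 129 with an offset for transcript length and 30 to 336 with single libraries left out, and that within replicates 3 to 6 (1809) was 1176 with at least 10 counts in every library and 1729 to 1892 with single libraries left out. Genes that differed between the sets (3613) numbered 2033 to 3874, and genes past both cutoffs in both sets (77) numbered 16 to 109, with single libraries left out. Where a set kept 1 library of a group, that library was assumed to vary like the others. The log2 fold change of Irf3 (-0.35) was 0.71 with the transcript length offset (adjusted p = 0.00181 in edgeR), which scales by length and so by the shorter Irf3 transcripts of FI3KO, and its value in replicates 3 to 6 was then 0.64. It was -0.18 in replicates 1 and 2 only (adjusted p = 0.452) and -0.44 to -0.30 with single libraries left out.

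With the replicate number as a block, 736 genes passed both cutoffs and Irf3 had -0.36 (adjusted p = 0.0538). The falls then numbered 7 rather than 20 of 22 macrophage markers, 6 rather than 13 in matrix remodeling, 6 rather than 11 in cell cycle, 3 rather than 8 of immediate-early genes and 3 rather than 5 of fibroblast markers and of lipolysis genes, and the rises in branched-chain amino acid catabolism 6 rather than 11. The numbers do not pair the samples, since the correlations ran from -0.293 to 0.104 and FI3KO libraries did not correlate best with their own number.

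Ifit1 turned to 0.049 without WT replicate 1 and to 0.32 with WT replicates 1 and 2 left out. Slc2a4 was -0.0029 with at least 10 counts in every library, -0.10 with the length offset, and -0.079 to 0.070 with single libraries left out, below 0 without FI3KO replicate 2, 5 or 6 or WT replicate 4, 5 or 6. With FI3KO replicates 1 and 2 left out, Pparg was 0.0079 and Cish -0.43. Vldlr in replicates 1 and 2 was 0.057 with the length offset. The causes were not tested. Of 3944 values of 165 genes under 24 settings, 3879 kept their direction and side of the threshold, 25 lost the call, 28 gained it and 12 changed sign. Of 983 list medians 939 moved by no more than the spread used to judge them. That spread was the SD over the 6 FI3KO libraries of the list's median log2 ratio to the WT mean. It includes the difference between the FI3KO libraries of the 2 replicate sets. A list that depends on the set therefore has a wide spread, and the count of 939 is no measure of its stability.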
